A study of Mus musculus with 24 samples.

Results

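Spinal dorsal horn astrocyte nuclei of incised mice were compared with those of naive mice at postnatal day 24 (P24), 21 days after a hindpaw incision made at P3. The comparison held 8 of the 24 libraries of the series, and its members were the libraries that the P24 table lists for these 2 groups. There were 4 libraries of incised pups, labelled F1, F2, M1 and M2, and 4 of naive pups, labelled F2, F3, M1 and M2. Incised pups had surgery on 1 hindpaw under isoflurane, and naive pups had isoflurane only. All 8 mice carried the genotype Aldh1l1-creERT2(+/-); R26-LSL-Sun1.GFP(+/-), in which a tamoxifen-dependent Cre under the astrocyte gene Aldh1l1 turns on a GFP-tagged nuclear envelope protein, so which nuclei were captured rests on that driver and on the sort. The dorsal horn of lumbar segments L3 to L5 on the incised side was taken, nuclei carrying GFP were isolated for each mouse on a flow sorter, and their nuclear RNA was sequenced. When and how tamoxifen was given is not stated in the labels. The comparison asks which transcripts in these nuclei differ long after an early injury.

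Astrocytes of the dorsal horn, where pain and touch fibres end, clear glutamate and potassium from around synapses, supply metabolites to neurons and respond to tissue injury with a set of reactive genes. The weeks after birth are also when oligodendrocyte precursors in the cord mature and wrap axons in myelin. Genes of the myelin sheath, such as Mbp and Mobp, are classical markers of oligodendrocytes and not of astrocytes, and neuropeptide genes such as Nts and Gal mark neurons of the superficial dorsal horn.

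The libraries resembled each other closely. Spearman correlations over genes ran from 0.957 to 0.971 between incised libraries, from 0.963 to 0.977 between naive libraries and from 0.953 to 0.974 across the groups. From the spacing of the lowest values, 1 read was worth about 1.91 to 2.44 normalized counts in incised libraries and about 1.37 to 2.32 in naive libraries, which puts the depth at roughly 2303000 to 3110000 reads on the listed genes in incised libraries and 2596000 to 4522000 in naive libraries. Only 79.6% to 86.2% of the lowest values lay within 0.1 of a whole multiple, so these depths are estimates. Astrocyte markers were high in all 8 libraries, with summed normalized counts of 25 identity genes from 207054 to 270838 in incised and from 232715 to 329094 in naive libraries. Markers of other cell types were present too, with summed counts of 26 mature oligodendrocyte genes from 90722 to 110281 in incised and from 120325 to 136496 in naive libraries. The library labelled naive M1 is male by its title and female by the deposited sample sheet. Its X-linked Ddx3x, at 932 normalized counts, lay with the libraries titled female, at 765 to 919, and not with the other males, at 462 to 516. The sex term below uses the titles, and a list's count with the sheet's sexes is given where it differs. In this bulk RNA, fewer nuclei of a type and less RNA per nucleus cannot be told apart, and p-values measure only the spread between these libraries.

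No gene passed the test between the 4 incised and the 4 naive libraries. Each gene was tested with limma on log2(normalized count + 1), with group and sex as terms, and calls required p under 0.05 after Benjamini-Hochberg adjustment. Of 15246 genes, 0 (0%) were called, and the lowest adjusted p was 0.0898. At an unadjusted p under 0.05, 755 genes (4.95%) were higher and 770 (5.05%) lower in incised pups. The 4 incised values all lay above the 4 naive values in 369 genes (2.42%) and all below them in 387 genes (2.54%). These shares are the background against which the gene groups below are read. They differed with expression level, as given further below. The median log2 change of all genes was -0.02.

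The genes with the lowest p-values among those higher in incised pups had varied roles. Klhdc7b, which encodes a kelch-domain protein, had 132, 151, 131 and 146 normalized counts in incised libraries, against 69.8, 39.4, 73.1 and 73.7 in naive libraries. The groups did not overlap, and the fitted fold was 2.23 (log2 change 1.16, SE 0.24, adjusted p = 0.0898 by limma, 0.10 to 0.441 when any 1 library was left out). Mme encodes neprilysin, a membrane peptidase that degrades enkephalins and tachykinins. It had 34.6, 56.4, 84.5 and 68.7 counts in incised and 18.7, 21.6, 9.26 and 27.4 in naive libraries, again without overlap, with a log2 change of 1.64 (SE 0.37, adjusted p = 0.205 by limma). Podxl2, which encodes the sialomucin endoglycan, had 248, 376, 446 and 345 counts in incised and 96.7, 153, 257 and 269 in naive libraries, where incised F1 lay below 2 naive libraries.

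Nrg1 encodes neuregulin 1, a growth factor of the ErbB receptors that acts on glia and on myelination. It had 156, 163, 156 and 178 counts in incised libraries and 51.8, 81.7, 151 and 68.6 in naive libraries, so that only the library labelled naive M1 came near the incised values. The log2 change of Nrg1 was 0.99 (SE 0.24, adjusted p = 0.215), and without naive M1 it was 1.28 with an adjusted p of 0.0447 by limma. Over the fits that each left out 1 library, the adjusted p of Nrg1 ran from 0.0447 to 0.553 by limma. Dgke, which encodes a diacylglycerol kinase, had 451 and 477 counts in incised libraries titled female and 257 and 248 in those titled male, against 199.9 to 231 in naive libraries. All 4 incised libraries lay above the naive ones, and the excess was 0.83 log2 units larger in females (SE 0.31), a difference that did not pass the test (adjusted p = 0.809 by limma). Among the 15 higher genes with the lowest p-values, the small GTPase gene Rab43 and the zinc finger gene Zfp184 also had no overlap, with log2 changes of 0.97 and 0.88.

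Some of the highest fold changes came from transcripts near the floor of detection. The transcript 1700099I09Rik, annotated as antisense, had 27.9 to 40.8 counts in incised and 6.27 to 13.1 in naive libraries, a log2 change of 1.85. Gpr135, an orphan receptor gene, had 29.7, 40.7, 21.5 and 22.2 counts in incised libraries and 0, 16.0, 11.5 and 11.05 in naive libraries. The authors listed only genes with normalized expression over 20 in at least 1 group. All naive values of 1700099I09Rik and Gpr135 lay below 20, so these genes are listed only through their incised values. Their fold changes are therefore subject to that selection. Gm8765 was at 0 in naive F2 and naive F3, and Zfp980 belongs to a zinc finger family with close copies, so the reads of both are uncertain. Gm10532, also annotated as antisense, had 258, 261, 245 and 394 counts in incised libraries against 159, 145, 199.9 and 176 in naive libraries. Whether the counting used strand is not given in the sources used here, so reads of these antisense transcripts and of their partners cannot be told apart.

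Genes lower in incised pups included an enzyme, cytoskeletal proteins and a matrix protein beside the myelin genes described below. Lpo, which encodes lactoperoxidase, had 176, 177, 252 and 192 counts in incised and 414, 366, 412 and 275 in naive libraries. Its fold was 0.55 (log2 change -0.87, SE 0.17, adjusted p = 0.0898), and its adjusted p ran from 0.0420 to 0.375 when 1 library was left out. Eml1, which encodes a microtubule-associated protein, had 377, 470.2, 385 and 435 counts in incised and 713, 683, 574 and 674 in naive libraries (log2 change -0.67, SE 0.13, adjusted p = 0.0898).

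Matn4, the gene of the extracellular matrix protein matrilin 4, had 275, 309.9, 269.6 and 191 counts in incised libraries and 499, 354, 462 and 480.5 in naive libraries. All 4 incised values of Matn4 lay below all 4 naive values (log2 change -0.79, SE 0.16, adjusted p = 0.0898 by limma). When 1 library was left out, the adjusted p of Matn4 ran from 0.0218, without naive F3, to 0.536 by limma. Clip3, which encodes a cytoplasmic linker protein, and the nuclear long noncoding RNA Neat1, a scaffold of paraspeckles, also showed no overlap, at log2 changes of -0.59 and -0.46. Samt1d, which has near-identical copies, was at 0 in incised F1 and F2 and had 12.8 and 9.63 counts in the incised males, against 15.8 to 37.1 in naive libraries, and its value is uncertain. All incised values of Samt1d lay below the authors' cut of 20, so this gene is listed only through its naive values.

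**Figure D1:**
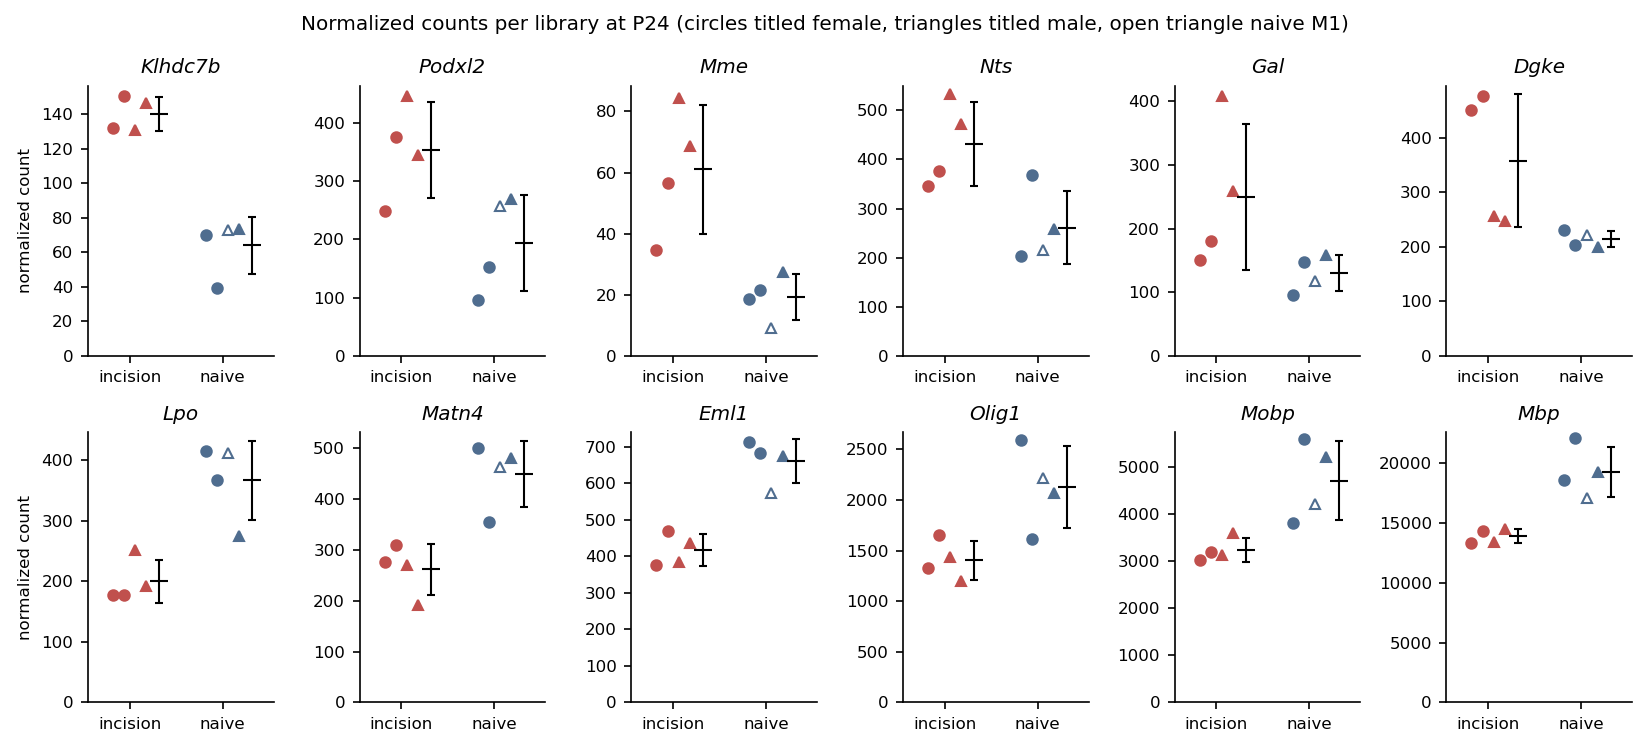
Normalized counts of 12 genes with low p-values in each P24 library, 6 higher (top row) and 6 lower (bottom row) in incised pups; incised libraries are on the left of each panel, naive on the right, circles are titled female, triangles male, the open triangle is naive M1, and the black mark is the mean ± SD (n = 4). The groups do not overlap in 8 of the 12 genes and overlap in Podxl2, Nts, Gal and Olig1, and the naive F3 value of Klhdc7b, 39.4, lies below the other naive values.

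Genes of the oligodendrocyte lineage had mostly lower values in incised pups. Of 26 mature oligodendrocyte genes, 23 had a negative log2 change, 16 were lower at an unadjusted p under 0.05 against a background of 5.05%, none was higher, and 11 lay wholly below the naive values against a background of 2.54%. Their median log2 change was -0.31, against -0.02 over all genes. The mean log2 level of these genes was 10.004 to 10.32 in the 4 incised libraries and 10.36 to 10.48 in the 4 naive libraries, without overlap. No member passed after adjustment over all genes. The list's median level was 1435 counts, and of 989 genes over 1000 counts, 135 were lower at an unadjusted p under 0.05. The list was chosen with earlier results of these libraries known, so its count is a description and not independent evidence.

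Mobp, which encodes a basic protein of compact central myelin, had 3027, 3211, 3136 and 3603 counts in incised and 3817, 5613, 4217 and 5231 in naive libraries. The incised libraries lay close together below a wider spread of naive ones (log2 change -0.53, SE 0.12, adjusted p = 0.205 by limma, 0.122 to 0.536 when 1 library was left out). Mbp, the gene of myelin basic protein, had 13306, 14349, 13418 and 14449 counts in incised and 18554, 22097, 17068 and 19273 in naive libraries, a log2 change of -0.47 (SE 0.11). Claudin 11, which forms the tight junctions of myelin, is encoded by Cldn11, with 2829, 3893, 3566 and 3387 counts in incised and 5033, 3994, 5112 and 4573 in naive libraries. In each of these 3 genes every incised library was below every naive one.

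Ugt8a encodes the enzyme that makes the myelin lipid galactocerebroside and had 616 to 840.5 counts in incised and 888 to 1129 in naive libraries (log2 change -0.49, SE 0.13). Cnp, the gene of an enzyme of uncompacted myelin, had 5435 to 6039 counts in incised and 6713 to 9066 in naive libraries (log2 change -0.38). Mag and Mog, which encode glycoproteins of the inner and the outer myelin surface, overlapped between groups at log2 changes of -0.45 and -0.23. The oligodendrocyte transcription factor gene Myrf also overlapped, with 168 to 269 counts in incised and 232 to 313 in naive libraries (log2 change -0.37). Among members with a positive log2 change were Nkx6-2, at 0.23, and Fa2h, at 0.01, each with overlapping groups.

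The promoter of Mobp is shown because it held more matches of the letters searched than any other. RefSeq's window of 250 bases before the start site on GRCm38.p6 (chr9:120149492-120149741, plus strand) was searched for the SOX core letters ACAAAG on both strands, that is ACAAAG or CTTTGT, which are drawn in capitals and do not overlap each other.
Mobp: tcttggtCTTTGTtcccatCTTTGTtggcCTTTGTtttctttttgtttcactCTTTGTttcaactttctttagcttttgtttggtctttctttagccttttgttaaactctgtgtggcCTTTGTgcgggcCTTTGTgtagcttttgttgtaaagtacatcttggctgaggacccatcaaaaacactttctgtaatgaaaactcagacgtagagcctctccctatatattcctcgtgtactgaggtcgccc
The Mobp window held 6 matches, the most of any of 32851 promoter windows in the table, of which 16.5% held at least 1. Cnp, with a smaller difference, held 1 match in its window (chr11:100574689-100574938, plus strand).
Cnp: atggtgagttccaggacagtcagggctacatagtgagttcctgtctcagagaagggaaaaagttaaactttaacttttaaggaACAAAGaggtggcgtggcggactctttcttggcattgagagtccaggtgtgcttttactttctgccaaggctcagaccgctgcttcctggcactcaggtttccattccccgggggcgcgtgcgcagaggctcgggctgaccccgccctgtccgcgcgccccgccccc
Of the 19 mature oligodendrocyte genes with a window, 6 had a match. Counted by window, as for the 16.5%, 7 of their 25 windows did. A match of letters says nothing of whether a factor binds there.

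Genes of oligodendrocyte precursors, the dividing cells that give rise to myelinating cells, also averaged lower. All 15 had a negative log2 change, with a median of -0.42. At an unadjusted p under 0.05, 9 were lower against a background of 5.05%. Lying wholly below the naive values were 5, against a background of 2.54%. The list's median level was 475 counts. Of 5383 genes from 200 to 1000 counts, 415 were lower and 30.7% had a positive log2 change. Olig1, a transcription factor of the whole lineage, had 1324, 1650.2, 1431 and 1203 counts in incised and 2596, 1616, 2219 and 2073 in naive libraries. Only naive F3 overlapped the incised values of Olig1 (log2 change -0.59, SE 0.13, adjusted p = 0.205), and without naive F3 the adjusted p was 0.0198 by limma. Over the fits that each left out 1 library, the adjusted p of Olig1 ran from 0.0198 to 0.553 by limma. Pdgfra, the receptor through which precursors respond to platelet-derived growth factor, had 738, 768, 759 and 563 counts in incised and 1207, 865, 963 and 888 in naive libraries, with no overlap (log2 change -0.47, SE 0.13). Cspg4, which encodes the NG2 proteoglycan on precursors, had 222 to 328 counts in incised and 333 to 429 in naive libraries (log2 change -0.51, SE 0.15). Olig2 overlapped between groups, at a log2 change of -0.26.

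Between these stages, 12 genes of newly formed oligodendrocytes had a median log2 change of -0.29, with 4 lower and 1 higher at an unadjusted p under 0.05. Over all genes 5.05% were lower and 4.95% higher, and the list's median level was 442 counts. Bcas1, a marker of cells beginning to myelinate, had 571, 474, 422 and 463 counts in incised and 677, 666, 872 and 576 in naive libraries, without overlap (log2 change -0.52, SE 0.14). The member with the opposite sign was Nkx2-2, a transcription factor of early lineage cells, with 201 to 302 counts in incised and 153 to 236 in naive libraries (log2 change 0.39, SE 0.18). Summed over members, the counts were 6891 to 7821 in incised and 8282 to 10091 in naive libraries for newly formed cells, and 5832 to 7238 in incised and 8088 to 10346 in naive libraries for precursors, with no overlap in either.

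**Figure D2:**
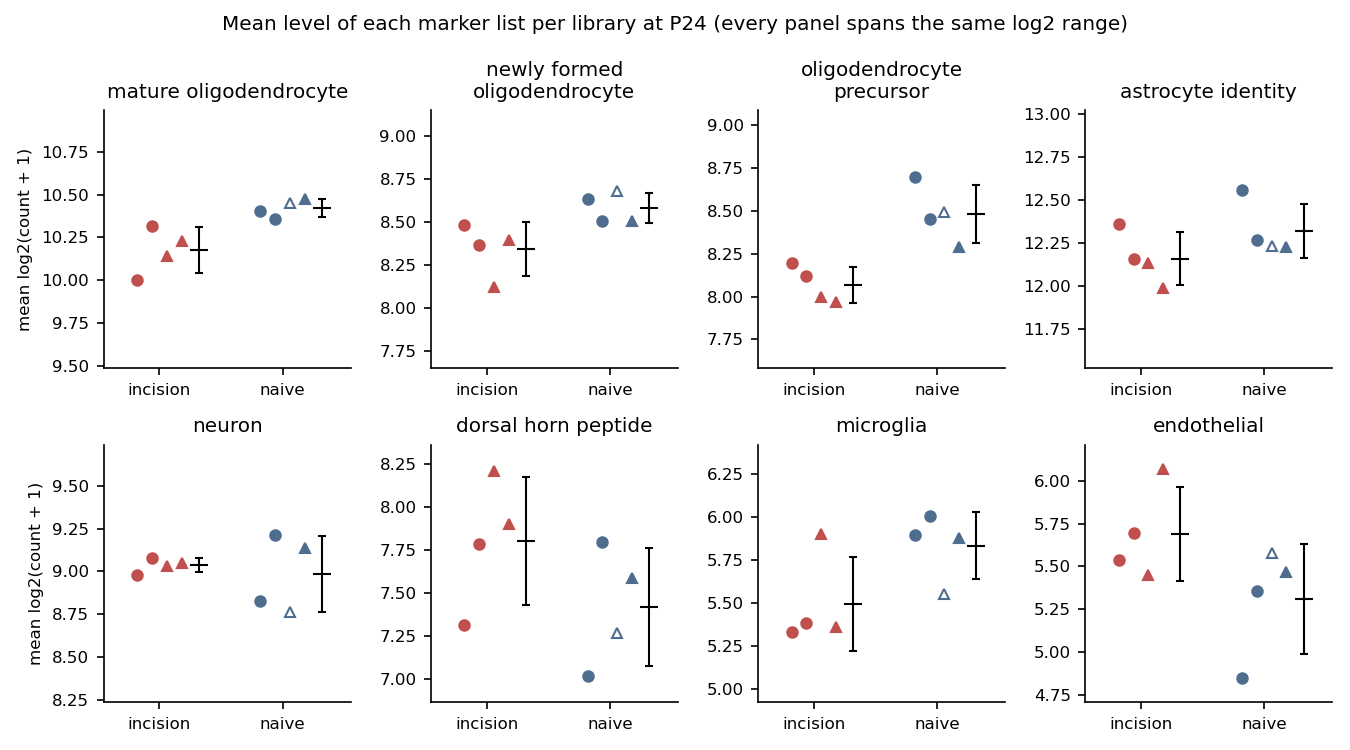
Mean log2(normalized count + 1) over the members of 8 marker lists in each P24 library, incised left and naive right, circles titled female, triangles male, open triangle naive M1, black marks mean ± SD (n = 4). The mature oligodendrocyte, newly formed oligodendrocyte and precursor lists show incised libraries below naive ones with no overlap, and the other 5 lists overlap.

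In naive pups the oligodendrocyte genes were at higher levels at P24 than at the earlier ages. In the age table, which is normalized apart and includes the same P24 naive libraries, the mean log2 level of the mature list in naive pups lay between 5.58 and 6.15 at P4, between 6.83 and 7.35 at P10, and between 10.15 and 10.28 at P24. Mobp averaged 70.0 counts at P4, 882 at P10 and 4005 at P24 in naive pups. The precursor list lay between 6.81 and 7.03 at P4, between 6.71 and 7.03 at P10, and between 8.07 and 8.47 at P24. Astrocyte identity genes lay between 11.46 and 11.71 at P4, between 11.92 and 12.47 at P10, and between 12.01 and 12.35 at P24.

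**Figure D3:**
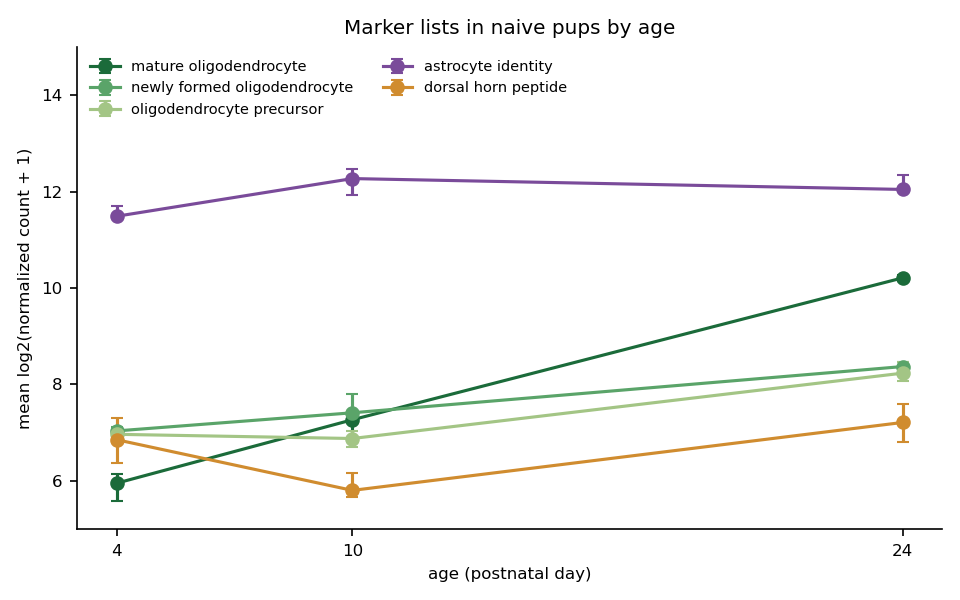
Mean log2(normalized count + 1) of 5 marker lists in naive pups at P4, P10 and P24, as the median (point) with the lowest and highest library (bars). The mature oligodendrocyte list climbs from a median of 5.95 at P4 to 10.21 at P24, while astrocyte identity genes stay between medians of 11.49 and 12.27.

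Genes that define astrocytes were mostly a little lower in incised pups, with wide overlap. Of 25 identity genes, 22 had a negative log2 change, with a median of -0.17, 8 were lower at an unadjusted p under 0.05 and none lay wholly below the naive values. With the sheet's sexes 4 were lower, and the median was -0.12. The list's median level was 3609 counts, and of 989 genes over 1000 counts, 135 were lower by the titles' sexes. Gfap, the intermediate filament gene that marks reactive astrocytes, had 22112, 21279, 23232 and 17448 counts in incised and 23525, 18955, 17778 and 20892 in naive libraries (log2 change 0.05, SE 0.12). Slc1a2, the main glutamate transporter, had 7108, 4954, 4817 and 4681 counts in incised and 6610.4, 6999.6, 6172 and 6609 in naive libraries, so 3 incised libraries lay below the naive range and incised F1 above it (log2 change -0.31, SE 0.12). The GABA transporter gene Slc6a11 (log2 change -0.41) and the bicarbonate transporter gene Slc4a4 (-0.36) overlapped between groups through incised F1 alone, which lay inside the naive range. Other markers differed by less: the log2 change was -0.14 for the water channel gene Aqp4, -0.16 for Aldh1l1 itself, -0.01 for Slc1a3, 0.17 for Sox9, -0.29 for Kcnj10, which encodes a potassium channel, and -0.05 for Gja1, which encodes a gap junction protein. When 1 library was left out the median of the list ran from -0.26, without naive F3, to -0.08, without naive F2, the library with the highest identity level at 12.56.

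Among functional groups, 4 of 20 genes of potassium, water and gap junction handling were lower at an unadjusted p under 0.05, 3 with the sheet's sexes, and none was higher. Over all genes 5.05% were lower. Of 989 genes over 1000 counts, 135 were lower and 22.1% had a positive log2 change. The potassium, glutamate and GABA, glycolysis and respiratory chain lists had median levels of 1604, 1463, 1657 and 1489 counts. The synapse list had 398, and of 5383 genes from 200 to 1000 counts, 415 were lower. Slc12a2, a sodium, potassium and chloride cotransporter gene, had 467 to 613 counts in incised and 625 to 873 in naive libraries (log2 change -0.49, SE 0.14). Of 16 genes of glutamate, glycine and GABA handling, 5 were lower, or 4 with the sheet's sexes, among them the glycine transporter gene Slc6a9, with 4493 to 5158 counts in incised and 5312 to 7213 in naive libraries. Glycolysis genes had a median log2 change of -0.18 over 20 members, with 6 lower, or 3 with the sheet's sexes, and none higher, led by the hexokinase gene Hk1, with 280.4 to 400.1 counts in incised and 418 to 528 in naive libraries. Respiratory chain genes had a median of -0.17 and 3 of 20 lower, or 1 with the sheet's sexes. Among 18 genes of synapse regulation 4 were lower, or 2 with the sheet's sexes, including the ephrin receptor gene Ephb1 (log2 change -0.52) and the thrombospondin gene Thbs2 (-0.32), both without overlap. The medians of the glutamate and GABA and of the synapse lists, -0.12 and -0.10, turned to 0.04 and 0.06 when libraries were scaled to the same astrocyte identity level, a scaling that moved the median of all genes to 0.14. The synapse median ran from -0.17, without incised F1, to -0.04, without incised M1. Relative to the median of all genes, the glutamate and GABA median was -0.10 and the synapse median -0.08, both before and after that scaling. After it, the mature oligodendrocyte median was -0.28 and the precursor median -0.40 by the same measure.

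Genes of dorsal horn neuropeptides and of receptors on peptide neurons mostly had higher values in incised pups. Of 13 such genes, 12 had a positive log2 change, with a median of 0.36, and 5 were higher at an unadjusted p under 0.05 against a background of 4.95%. With the sheet's sexes 3 were higher. When 1 library was left out, the median by the titles' sexes ran from 0.22, without naive F2, to 0.49, without naive F3. Nts, which encodes neurotensin, had 347, 377, 532 and 472 counts in incised and 204, 368, 215 and 258 in naive libraries, with only naive F3 above an incised value (log2 change 0.74, SE 0.18, adjusted p = 0.215 by limma). When 1 library was left out, the adjusted p of Nts ran from 0.0198, without naive F3, to 0.553 by limma. Gal, the galanin gene, had 151, 180.3, 408 and 259 counts in incised and 96.0, 147, 118 and 159 in naive libraries (log2 change 0.86, SE 0.21). Grp, which encodes gastrin-releasing peptide, a transmitter of itch circuits, had 90.3, 112, 141 and 146 counts in incised and 47.0, 77.7, 70.9 and 64.1 in naive libraries. Grp was the only gene of the group without overlap (log2 change 0.90, SE 0.24, adjusted p = 0.261). Penk and Tac1, which encode enkephalin and substance P precursors, stood at log2 changes of 0.22 and -0.08.

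General neuronal genes were evenly split. Of 16 neuronal markers, 8 had a positive and 8 a negative change, with a median of 0.04 that was -0.12 without naive M1, and 2 were higher at an unadjusted p under 0.05, the synaptotagmin gene Syt4 and Rbfox3, the gene of the nuclear protein NeuN. The mean log2 level of these markers was 8.98 to 9.08 in incised libraries and 8.77 to 9.21 in naive libraries. The level of the peptide list was 7.31, 7.78, 8.21 and 7.90 in incised libraries and 7.02, 7.80, 7.27 and 7.59 in naive libraries, so the groups overlapped. Neuronal markers were also lowest in naive F2 and naive M1, at 8.83 and 8.77, and their part in the peptide values was not tested. Without naive M1 the median of the peptide list was 0.27.

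The window before the start site of Nts is shown because its peptide gene had the lowest p of the group. In these 250 bases (chr10:102490419-102490668, minus strand, written 5′ to 3′ on the gene's strand) the AP-1 letters TGAGTCA, or TGACTCA on the other strand, are in capitals.
Nts: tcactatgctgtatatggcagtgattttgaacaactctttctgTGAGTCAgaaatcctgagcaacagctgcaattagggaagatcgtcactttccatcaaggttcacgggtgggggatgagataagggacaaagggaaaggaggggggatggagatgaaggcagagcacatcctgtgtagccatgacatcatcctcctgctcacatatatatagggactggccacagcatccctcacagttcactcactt
Nts held 1 such match. Of the 11 peptide genes with a window, 2 held 1 or more. Counted by window, 2 of 12 peptide windows and 4.46% of all windows did.

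Markers of endothelial cells averaged higher and those of microglia lower, both at low counts. Of 10 endothelial genes 7 had a positive log2 change, with a median of 0.47, and 4 were higher at an unadjusted p under 0.05. The list's median level was 38.9 counts, and of 3262 genes under 50 counts, 336 were higher by the same measure. Those 3262 genes had a median log2 change of 0.25, and 69.8% were positive, so the share of positive endothelial members was near that of genes at their level. Esam, an endothelial adhesion molecule gene, had 82.7, 96.8, 76.8 and 95.8 counts in incised and 55.8, 43.1, 75.3 and 48.2 in naive libraries, without overlap (log2 change 0.68, SE 0.26). Cldn5, the main tight junction gene of brain vessels, had 88.7 to 149.9 counts in incised and 70.6 to 92.2 in naive libraries (log2 change 0.53, SE 0.23). The defining endothelial genes Flt1 and Pecam1 stood at log2 changes of -0.13 and -0.15. Summed over members, endothelial genes had 615 to 840.3 counts in incised and 398 to 609 in naive libraries.

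Microglial genes had a median log2 change of -0.37 over 15 members. At an unadjusted p under 0.05, 3 were lower against a background of 5.05%, or 4 with the sheet's sexes, and none was higher. That median was -0.61 without incised M1, -0.21 without incised F1 and -0.20 without incised M2 or without naive F3, and -0.089 in the 6 libraries that share a replicate number. The complement gene C1qa, which microglia use to tag synapses, had 29.5, 20.5, 57.1 and 34.7 counts in incised and 68.1, 85.6, 57.6 and 71.2 in naive libraries. The groups were apart by less than 1 count between incised M1 and naive M1 (log2 change -1.05, SE 0.31, adjusted p = 0.326). Ctss and C1qb, a lysosomal protease and another complement gene, overlapped at log2 changes of -0.64 each. The homeostatic marker P2ry12 stood at 0.01 and Tmem119 at -0.13. The mean log2 level of the list was 5.33, 5.38 and 5.36 in 3 incised libraries and 5.90 in incised M1, inside the naive range of 5.55 to 6.01.

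Few genes of the astrocyte injury response passed an unadjusted p under 0.05. Of 9 pan-reactive genes tested none passed an unadjusted p under 0.05 in either direction, with a median log2 change of 0.04, and their summed counts were 19001 to 25424 in incised and 19338 to 25886 in naive libraries. Of 11 genes of the A1 set, linked to inflammatory signals, none passed either, though 2 were lower with the sheet's sexes, with a median of -0.07 that became 0.09 with libraries scaled to the same identity level. Relative to the median of all genes, the A1 median was -0.05 both before and after that scaling. Of 10 genes of the A2 set, first described after ischaemia, 8 had a positive log2 change and 2 were higher. The A2 median was 0.15, against -0.02 over all genes, and ran from 0.08, without naive F3, to 0.31, without naive F2. The median level of the A2 list was 45.6 counts, and genes under 50 counts had a median log2 change of 0.25, with 69.8% positive. The higher genes were Sphk1, a sphingosine kinase gene, with 63.7, 54.3, 74.9 and 74.5 counts in incised and 39.4, 30.8, 34.5 and 49.0 in naive libraries, and Clcf1, a cytokine gene, with 38.2 to 53.7 counts in incised and 12.6 to 41.7 in naive libraries. Cytokine and pain signal genes had a median of 0.03 over 17 members, with 1 lower, Nfkbia, and none higher, or 1 of each with the sheet's sexes. Lif, also in this list, was at 0 in naive F2 and had 22.5 to 33.9 counts in the others. Immediate early genes, which follow recent activity, had a median of 0.23, or 0.15 without incised F1, with 13 of 15 positive and 2 higher, Egr3 and Jund, while Fos, at 0.12, and Egr1, at 0.27, overlapped between groups.

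**Figure D4:**
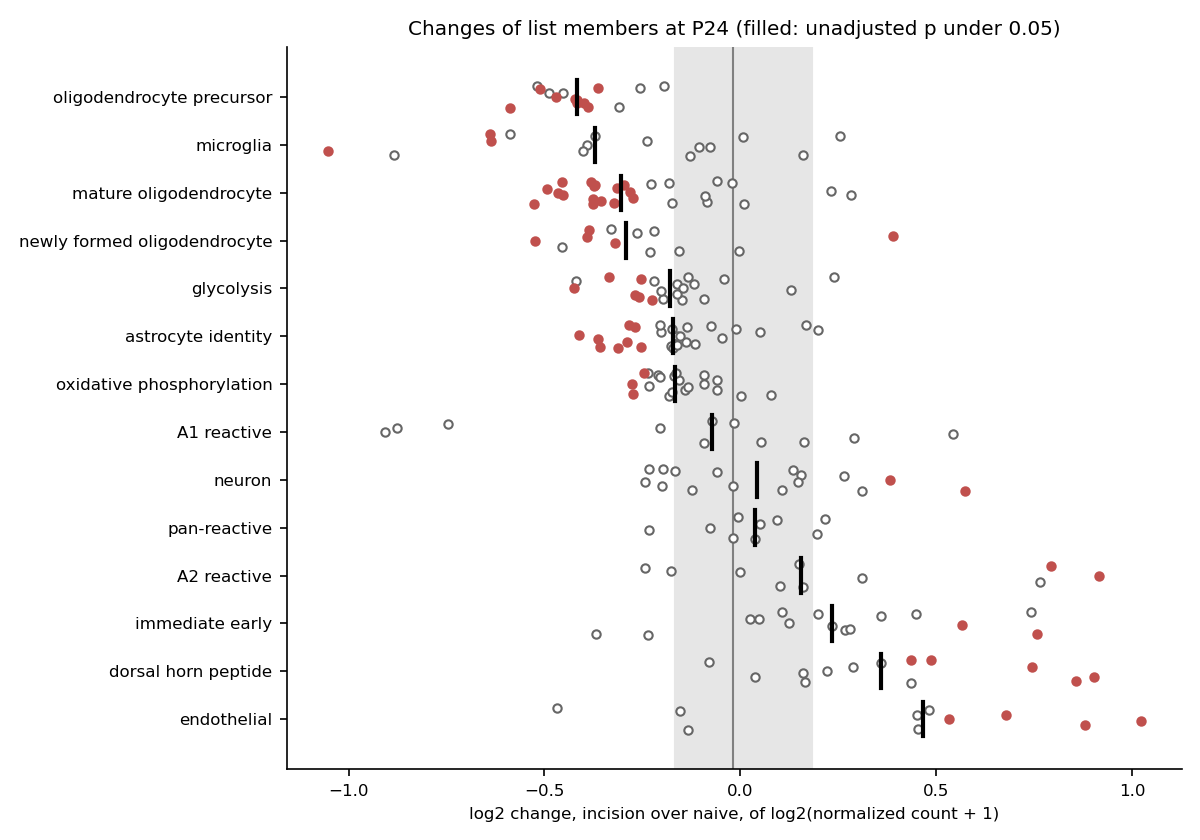
Log2 change, incised over naive, of each tested member of 14 lists at P24; filled points have an unadjusted p under 0.05, black bars are list medians, and the grey band is the interquartile range of all 15246 genes, with a line at their median of -0.02. Precursor, mature oligodendrocyte and microglial medians lie left of the band, endothelial and peptide medians right of it, and the medians of the pan-reactive, A1 and A2 lists within it.

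The direction of the differences varied with expression level. Genes with a mean under 50 normalized counts, 3262 in number, had a median log2 change of 0.25, and 336 of them were higher against 32 lower at an unadjusted p under 0.05. The median was 0.02 for 5612 genes from 50 to 200, -0.08 for 5383 genes from 200 to 1000 and -0.10 for 989 genes over 1000, where 19 were higher and 135 lower. After quantile normalization the same medians were 0.027, -0.0035, -0.0092 and -0.010, and among genes past an unadjusted p under 0.05 there were 626 higher and 564 lower. Endothelial members are low genes, with a median level of 38.9 counts, and oligodendrocyte and identity members are high, at medians of 1435 and 3609. After quantile normalization the list medians were -0.19 for mature oligodendrocytes, -0.34 for precursors, -0.07 for astrocyte identity, 0.38 for peptides, 0.40 for endothelial and -0.51 for microglial genes. The split between higher and lower genes also shifted with a mean of at least 50 counts, to 412 against 730, with no trend and robust settings, to 951 against 480, with an equal median per library, to 886 against 531, and with an equal identity level, to 1590 against 69.

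**Figure D5:**
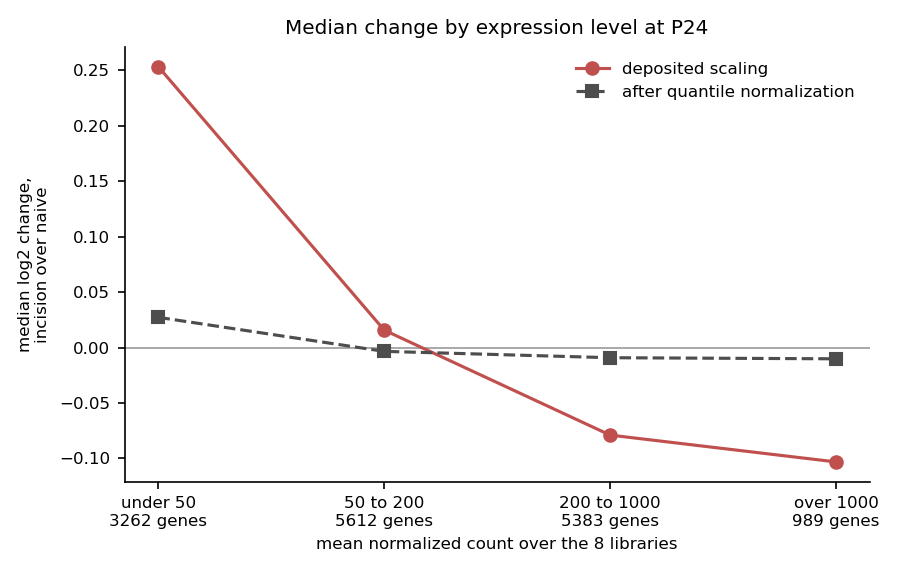
Median log2 change, incised over naive, of genes grouped by mean normalized count, with the deposited scaling (circles) and after quantile normalization (squares). With the deposited scaling it runs from 0.25 for genes under 50 counts to -0.10 for genes over 1000, and after quantile normalization every group lies within 0.03 of 0.

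Regulators and signalling genes had few members past an unadjusted p under 0.05, where 4.95% of all genes were higher and 5.05% lower. In the group of Notch, BMP and FGF genes, 2 were higher and 3 lower of 25 at an unadjusted p under 0.05, or 3 and 2 with the sheet's sexes, among them the receptor gene Notch2, with 1123 to 1484 counts in incised and 902 to 1140.4 in naive libraries, and the FGF-responsive genes Etv4 and Etv5, at log2 changes of -0.44 and -0.48. Gliogenic transcription factors had 3 lower of 15, and Zbtb20 and Zeb2, with log2 changes of -0.48 and -0.44, lay wholly below the naive values. Of 18 Hox genes that mark lumbar position, 3 were higher, led by Hoxd8, with 589.6, 650.2, 435 and 434 counts in incised and 419.6, 383, 342 and 309 in naive libraries, which did not overlap (log2 change 0.52, SE 0.14, adjusted p = 0.255). Glucocorticoid targets had 2 lower of 14, or 3 with the sheet's sexes, including the metabolic switch gene Pdk4 (log2 change -0.78) and Hsd11b1 (-0.37), the enzyme that regenerates active glucocorticoid. The medians of the Notch, BMP and FGF, gliogenic and glucocorticoid lists were -0.08, -0.15 and -0.12 and turned to 0.08, 0.01 and 0.04 with an equal identity level per library. Relative to the median of all genes, they were -0.06, -0.13 and -0.10 both before and after that scaling. None of 18 clock genes and none of 11 thyroid hormone genes passed an unadjusted p under 0.05 in either direction, while with the sheet's sexes 1 clock gene was higher and 1 thyroid hormone gene lower.

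Whether incision acted differently by sex was tested with an interaction term. By the titles, 3 of 15246 genes (0.0197%) were called, Gm3286, Nptxr and Tmem254a, and all 3 were at 0 in a pair of libraries of 1 group and sex. With the sheet's sexes, which leave 1 naive male, 0 were called, the lowest adjusted p was 0.161 by limma, and 422 genes had an unadjusted p under 0.05. The main comparison with the sheet's sexes also called 0 genes, with a lowest adjusted p of 0.144, and the median changes were -0.31 for mature oligodendrocyte, -0.41 for precursor and 0.30 for peptide genes. Without naive M1 they were -0.32, -0.41 and 0.27.

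Earlier after incision the same lists had other values, from separate tables and separate pups, and the difference between ages was not tested. The median log2 change of mature oligodendrocyte genes was 0.08 over 19 members at P4, 0.43 over 23 at P10 and -0.31 over 26 at P24. Precursor genes stood at 0.19 at P4, 0.33 at P10 and -0.42 at P24. Peptide genes stood at -0.09 at P4, 0.66 at P10 and 0.36 at P24. Members of the mature list differed: 10 of 19 had a positive log2 change at P4 and 17 of 23 at P10. Mobp stood at 0.76, 0.15 and -0.53 at the 3 ages, Cldn11 at 1.09, 0.38 and -0.46, and Mal at -1.36, -0.32 and -0.31. None of these 3 genes passed after adjustment at P4 or P10. The P10 values rest on 6 libraries, since 2 others carry labels that contradict each other.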

How the data were processed

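Sorted astrocyte nuclei were profiled by RNA-seq for each mouse. The values are normalized counts (a signal that is not whole reads) that the authors deposited, made with STAR, Salmon and DESeq2 on mm10 per the submitters' processing notes, with no versions given. Per the file headers, the authors first dropped genes that did not reach 10 counts in 4 samples or more, modelled sex and condition, and then required normalized expression over 20 and a coefficient of variation under 0.65, each in at least 1 group. Whole reads could not be recovered from the deposited values, so no count model was used, and the deposited fold changes and p columns were not used.

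Here limma 3.58.1 with statmod 1.5.0 in R 4.3.3 was fitted to log2(value + 1) of 15246 genes, with group and the titles' sexes as terms and trend and robust settings. Folds are on that scale. The added 1 shrinks changes of low genes, but a library at 0 can enlarge them. Gpr135, at 0 in naive F2, had a fitted fold of 4.02 with means of 28.5 counts in incised and 9.66 in naive libraries. A mean of at least 10 was required and left out 0 genes. P-values were adjusted by Benjamini and Hochberg over all genes. The fit was tested on simulated data with known changes. Named genes were the 15 with the lowest p and the 5 with the largest change in each direction, 8 astrocyte genes, and the leading members of 32 lists, while other defining markers (Penk, Tac1, Flt1, Pecam1, P2ry12, Tmem119, Lif, Fos and Egr1) were chosen after their values were seen. The comparison and the lists were chosen with earlier results of these data known. Alternatives were other pseudocounts, filters, sexes, scalings, limma settings, a replicate block and leaving out each library. Promoter windows are RefSeq's on GRCm38.p6. Some items are not reported here.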

Additional observations from a re-analysis of the deposited data

Results flagged for a closer look

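Of 156 groups of 4 libraries examined, 8 held a library far from the other 3, and chance flags about 1 in 20 groups. Among genes these were Klhdc7b at 39.4 normalized counts in naive F3, Gm10532 at 394 in incised M2, 5430402O13Rik at 29.6 in naive M1 and Slc1a2 at 7108 in incised F1. Among mean log2 levels of lists they were microglia at 5.90 in incised M1, astrocyte identity at 12.56 in naive F2, cytokine and pain signals at 7.07 in naive F2, and purine and monoamine receptors at 7.54 in naive M1.

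Incision effects differed between sexes, by the titles, in 3 genes, and each difference rests on libraries listed at 0. The effect in females minus that in males was -5.80 log2 units for Gm3286 (adjusted p = 0.0331 by limma), which had 0, 0, 37.7 and 46.5 counts in incised and 12.6 to 25.7 in naive libraries. It was -6.24 for Nptxr (adjusted p = 0.000329 by limma) and -7.63 for Tmem254a (adjusted p = 4.95e-11 by limma), both at 0 in naive M1 and naive M2. Tmem254a has near-identical copies and is uncertain. With the sheet's sexes none of the 3 passed, with adjusted p from 0.161 to 1.00.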

How the results depend on the processing

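The count of called genes was 0 with pseudocounts of 10 and 0.5, a mean of at least 50, no sex term, the sheet's sexes, no trend and robust settings, quantile normalization, an equal median and an equal identity level, and no filter changed nothing since no gene fell under it. Leaving out 1 library gave 0 to 5 called genes: 5 without naive F3 (Car4, Matn4, Nmur2, Nts and Olig1), 2 without naive M1 (AI429214 and Nrg1), 2 without incised F1 (Pde4a and Rpl26), and 1, Lpo, without naive M2 or incised M1. With a replicate block on the 6 libraries that share a number 17 genes were called, and 17 in the same 6 libraries with no replicate block. Deviations of same-numbered libraries correlated at 0.032, -0.112 and -0.078, and those of differently numbered libraries at -0.084 to 0.160. With 3 shared numbers, these values cannot settle whether the numbers pair the mice. The sex interaction gave 0 genes with the sheet's sexes. The mature oligodendrocyte median was -0.19 after quantile normalization and -0.15 with an equal identity level, and the precursor median was -0.26 with that equal identity level. An equal identity level also moved the median of all genes from -0.02 to 0.14. Relative to the median of all genes, the mature median was -0.286 before and -0.285 after that scaling. The precursor median was -0.397 before and -0.396 after it. The microglial median was -0.089 in both fits of 6 libraries and ran from -0.61, without incised M1, to -0.20 when 1 library was left out. The cause of the shifts in the microglial median and after quantile normalization was not tested. All 38 genes named for a low p or a large change kept their sign under every alternative. They were picked from these same libraries, so their kept signs are no independent check. At this depth low genes carry few reads, and differences between them were not detectable unless large.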

Other observations

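Lists not described above had medians from -0.15 to 0.05, against -0.02 over all genes, except for 0.32 in 4 Schwann cell genes. Of 23 ribosomal protein genes, 3 were lower and 1 higher at an unadjusted p under 0.05, or 3 and 0 with the sheet's sexes, and their median of -0.09 turned to 0.07 with an equal identity level per library. Cholesterol synthesis genes had 2 lower of 22, Dhcr7 and Hmgcs1, with a median of -0.15 that turned to 0.02 with that scaling, and with the sheet's sexes 1 was lower and 1 higher. Extracellular matrix genes had 2 higher of 23, the laminin gene Lama1 (log2 change 0.91) and the fibulin gene Efemp1 (0.68), with a median of 0.05, and 1 was higher with the sheet's sexes. Of 16 heat shock and unfolded protein genes, 2 were higher, Xbp1 and Herpud1, and 1 lower, Calr, with a median of 0.02. With the sheet's sexes 0 of the 16 passed in either direction, and the median was -0.02. None of 14 purine and monoamine receptor genes passed an unadjusted p under 0.05. Markers of other cell types in the cord were few or mixed: 1 of 10 mural and fibroblast genes was higher, Kcnj8, with a median of -0.11 that turned to 0.05 with an equal identity level. With the sheet's sexes 1 of these was also lower. Of the others, 1 of 4 Schwann cell genes was higher, Prx, with a median of 0.32, and none of 4 ependymal genes passed, or 1, higher, with the sheet's sexes. Relative to the median of all genes, the ribosomal, cholesterol and mural medians were -0.07, -0.13 and -0.09 with the deposited scaling. With an equal identity level they were -0.07, -0.12 and -0.09.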
